A study of Mus musculus with 6 samples.

Results

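The innate lymphoid cells (ILCs) of the mouse brain described here are the cells that the deposited annotation places in its class ILCs. They were 330 of 13052 immune cells, in a data set that also held 728 cells of the class CD8+ and 214 of the class CD4+. The cells came from whole brains of female C57BL/6 mice and were profiled by CITE-seq, a single-cell method in which each cell yields both its RNA and the barcodes of bound antibodies. The 4 groups were mice of 12 weeks (young) or 72 weeks (aged), each given either vehicle, which left the gut microbiota intact (control), or antibiotics, which depleted it (antibiotic). Each group had 6 mice collapsed into 3 pools, so the 12 pools are the replicates. Each pool carried its own hashtag, and the 6 young pools and the 6 aged pools were loaded in separate wells, so that age and well cannot be told apart. Hashtags 1 to 3 always marked control pools and 4 to 6 antibiotic pools, so hashtag and treatment cannot be told apart either. The 3263 cells of each group were equal in number, and the sources used here do not say how they were chosen. Every share below is a share within these cells.

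ILCs are lymphocytes that lack a rearranged antigen receptor. Group 1 ILCs, which include natural killer (NK) cells, kill through granzymes and perforin, use the factors T-bet and Eomes, and carry receptors such as NKp46 (Ncr1) and NK1.1 (Klrb1c). Group 2 ILCs (ILC2s) depend on GATA3 and RORα, respond to IL-33 through its receptor ST2 (Il1rl1), and make IL-5, IL-13, amphiregulin and GM-CSF; in the brain they are known from the meninges. Group 3 ILCs make IL-17 and IL-22.

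The antibody readout rests on short DNA barcodes that are read together with the RNA, and 8 of them are shown because the results below turn on the proteins they stand for. The barcodes, as the deposited antibody table gives them, written 5′ to 3′ in lower case, are the following.
CD3: gtatgtccgctcgat
CD4: aacaagacccttgag
CD8a: tacccgtaatagcgt
CD25: accatgagacacagt
CD117-c-kit: tgcatgtcatcggtg
NK1.1: gtaacattactcgtc
CD335: ccctttcacctcgaa
KLRG1: gtagtaggctagacc
CD25 is the IL-2 receptor alpha chain (gene Il2ra), CD117 is the receptor for stem cell factor (Kit), and CD335 is NKp46 (Ncr1). Antibodies to CD335, CXCR4 and KLRG1 were outside the 31 named in the design text. Over all 6526 cells of the young well they gave 23, 0 and 3 tags, against 2124, 486 and 632 over the 6526 cells of the aged well. No comparison by age is made for these 3 antibodies.

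The class was bounded by surface CD3. In the young well the ILCs held 1 to 43 CD3 tags (median 17), while the lowest T cell held 45. In the aged well, where most antibodies gave fewer tags, the ILCs held 0 to 4 CD3 tags (median 2), and the lowest T cells held 5. Median CD3 tags of CD4+ cells were 100.5 in the young and 22 in the aged well, and those of CD8+ cells were 87 and 17. Just inside the aged limit, 47 ILCs held 4 CD3 tags, and 30 of these 47 cells also held RNA of a CD3 chain. Just outside it, 15 T cells held 5 tags. In the young well only 1 ILC held 43 tags, with no CD3 RNA, and 2 T cells held 45.

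**Figure D1:**
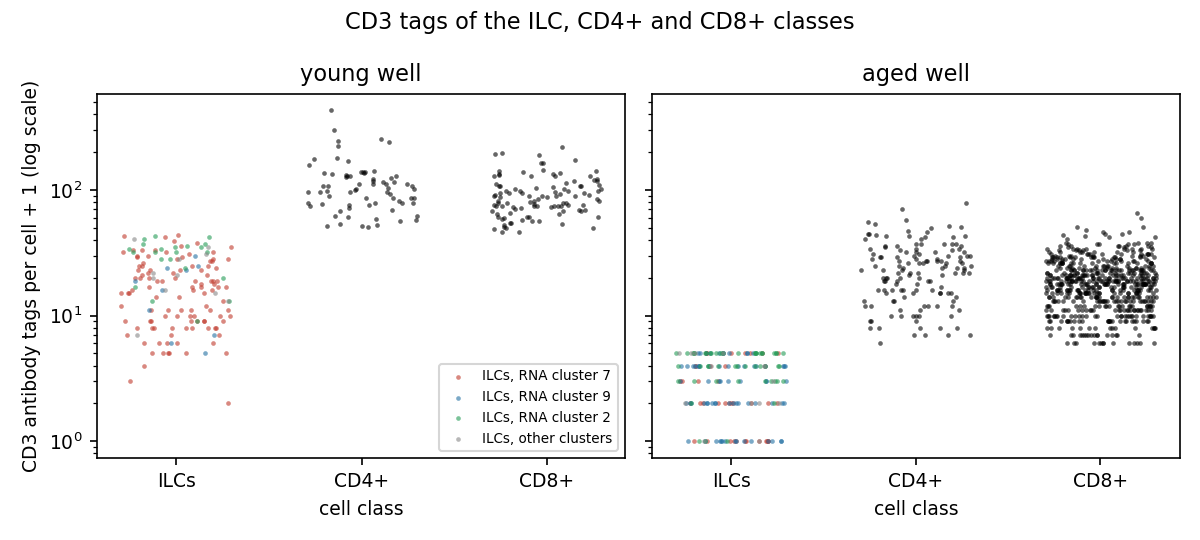
CD3 antibody tags per cell (tags + 1, log axis) in the classes ILCs, CD4+ and CD8+ of the young and the aged well, each point 1 cell, with ILCs coloured by their RNA cluster. ILCs end at 43 tags in the young and at 4 tags in the aged well, directly below the lowest T cells, and the cells of cluster 2 gather near the aged limit.

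RNA may have entered the class as well, and its exact terms are not given in the sources used here. Thy1 RNA, which encodes the lymphocyte surface protein Thy-1, was above 0 in 287 of 330 ILCs (87.0%), 726 of 728 CD8+ cells and 214 of 214 CD4+ cells. It was above 0 in 0 of 1375 cells of the 3 classes named for Ly6C. These classes were not purely myeloid by RNA, since 62 of the 634 Ly6CLow cells held Ncr1 or Klrb1c RNA. All 43 ILCs without Thy1 RNA held Ncr1 or Klrb1c RNA. Differences in Thy1, Ncr1 and Klrb1c, in the CD3, CD4, CD8a, CD45, CD11b and B220 tags and in Ptprc and Itgam RNA are therefore given below as descriptions, with no test between the classes.

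Depth differed little between the classes. The median raw UMI total was 6236.5 in ILCs, 7096.5 in CD8+ and 5971.5 in CD4+ cells, and 7 ILCs had fewer than 2000. Antibody depth differed strongly between wells, with pool medians of 1840 to 2298 tags per ILC in young and 245 to 326 in aged pools. Cell barcodes found in both wells numbered 59, and 1 of those cells was an ILC. The pool aged control 2 stood apart. It held 87 of the 330 ILCs, and 48 of those 87 lay in RNA cluster 2, which is made mostly of T cells. Its CD8+ cells had a median of 9 CD3 tags, against 17 to 24.5 in the other aged pools, although their total tags (median 563) lay within the range of those pools (553 to 625). The main results that rest on that pool or on cluster 2 are given with and without them.

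The 5 genes taken as markers of the class marked different cells within it. RNA of Gata3, the master factor of ILC2s, was above 0 in 43.3% of ILCs, against 23.4% of CD8+, 29.9% of CD4+ and 0.319% of microglial cells. Rora, a second ILC2 factor, was above 0 in 39.1% of ILCs, 33.7% of CD8+ and 47.2% of CD4+ cells, so its presence alone did not set the class apart. Il1rl1 was above 0 in 22.4% of ILCs, 1.24% of CD8+ and 7.01% of CD4+ cells. The NK receptors Ncr1 and Klrb1c were above 0 in 46.7% and 48.5% of ILCs, and in 1.1% and 3.98% of CD8+ cells. No one marker covered even a majority of the cells.

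The authors' RNA clusters split the class into 3 main sets. Cluster 7 held 151 ILCs (45.8%), cluster 9 held 81 (24.5%), cluster 2 held 74 (22.4%), and 24 lay in other clusters. Cluster 7 ILCs were NK-like. Over all its cells, of every class, the cluster was led by Gzma, Ncr1, Klrb1c, Gzmb, Klra4, Gzmc, Klra9, Klre1, Prf1 and Klra8, of which 9 are in the NK and ILC1 list. Its ILCs against the other ILCs were led by Klra8, Gzmc, Ncr1, Klrb1c, Klrb1a, Klra9, Klra4, Klri2, Gzma and Klre1. Cluster 9 ILCs were ILC2-like. That cluster as a whole was led by Gm20186, Areg, Calca, Csf2, Il2ra, Gata3, Il1rl1, Lif, Hes1 and Rora, of which 7 are in the ILC2 list, and its ILCs by Il1rl1, Hs3st1, Hes1, Gm20186, Rnf128, Csf2, Lif, Areg, Pard3 and Calca. Cluster 2 ILCs were led by Cd8b1, Trac, Gzmk, Cd3e, Cd8a, Cd3d, Tcrg-C2, Gm8369, Cd163l1 and Cd3g, mostly T cell genes that go against the class name, and are called T-like here. Clusters were made from these same RNA values, so their leading genes are a description and carry no test. The clusters were also not made of ILCs alone. Cluster 7 held 238 cells in all, among them 52 of the class Ly6CLow and 9 of the 9 cells of the class NKCells, and cluster 9 held 144, among them 41 Ly6CLow and 15 microglia.

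The NK-like ILCs of cluster 7 held Ncr1 RNA in 96.0% and Klrb1c RNA in 97.4% of cells. On the deposited scale of corrected UMI values, their mean Gzma (granzyme A) level was 34.5, against 0 in cluster 9. Levels of different genes cannot be ranked on that scale. Mean Prf1 (perforin) was 4.21, Ccl5, a chemokine for T cells, 75.2 and Xcl1, a chemokine for cross-presenting dendritic cells, 8.41. The signalling adaptors Fcer1g and Tyrobp, used by many activating NK receptors, had means of 18.8 and 15.4. Eomes, the factor of conventional NK cells, was above 0 in 41.7% and Tbx21 (T-bet) in 44.4% of cluster 7 ILCs. Itga1 (CD49a), a marker of tissue-resident group 1 ILCs, was above 0 in 32.5%, and Itga2 (CD49b), a marker of circulating NK cells, in 36.4%. Il1rl1 was at 0 in all 151 of these cells, which allows a share of cells with a UMI of up to 1.99%, for counting error only, and does not limit the share of cells that express it.

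The ILC2-like cells of cluster 9 held Gata3 RNA in 93.8%, and Rora and Il1rl1 RNA in 86.4% each. Their mean Areg (amphiregulin) level was 6.75, Csf2 (GM-CSF) 4.05 and Calca, which encodes the neuropeptide CGRP, 3.11. Il7r, the IL-7 receptor chain on which ILCs depend, was above 0 in 97.5% and Kit in 61.7% of them. RNA of the classical ILC2 cytokines was sparse, with Il5 above 0 in 4.94%, Il13 in 6.17% and Il4 in 14.8% of cluster 9 ILCs. Among receptors through which nerves and lipids act on ILC2s, Ramp1, part of the CGRP receptor, was above 0 in 75.3%, the leukotriene receptors Ltb4r1 and Cysltr1 in 80.2% and 53.1%, and the neuromedin receptor Nmur1 in 2.47%. Eomes, Tbx21 and Klrb1c had no UMI in any of the 81 cells, which allows a share of cells with a UMI of up to 3.70%.

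The T-like ILCs of cluster 2 held RNA of a CD3 chain in 70 of 74 cells (94.6%, exact 95% binomial interval 86.7% to 98.5%). That share was 15.9% (10.5% to 22.7%) in cluster 7 and 21.0% in cluster 9. RNA of Cd8a or Cd8b1 was present in 50 of the 74 cells and RNA of Cd4 in 1. Surface CD8a was present too: in the aged well cluster 2 ILCs had a mean of 69.0 CD8a tags, against 117.6 in CD8+ cells, 1.0 in cluster 7 and 0.9 in cluster 9 ILCs. In the young well the mean was 57.6 in cluster 2 ILCs and 535.3 in CD8+ cells. RNA of gamma-delta T cell receptor genes (Trdc or a Tcrg constant gene) was present in 40 of the 74 cells, but also in 53 of 81 ILCs of cluster 9 and 51 of 151 of cluster 7. Tcrg-C2 averaged 1.03 in cluster 2 ILCs, 0.0066 in cluster 7 and 0 in cluster 9, and was above 0 in 37.8% of cluster 2 ILCs and 40.4% of CD8+ cells. Trdc and Cd163l1 were above 0 in 13.5% and 8.11% of cluster 2 ILCs. The same 74 cells held Gata3 RNA in 36.5% and Il1rl1 RNA in none.

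**Figure D2:**
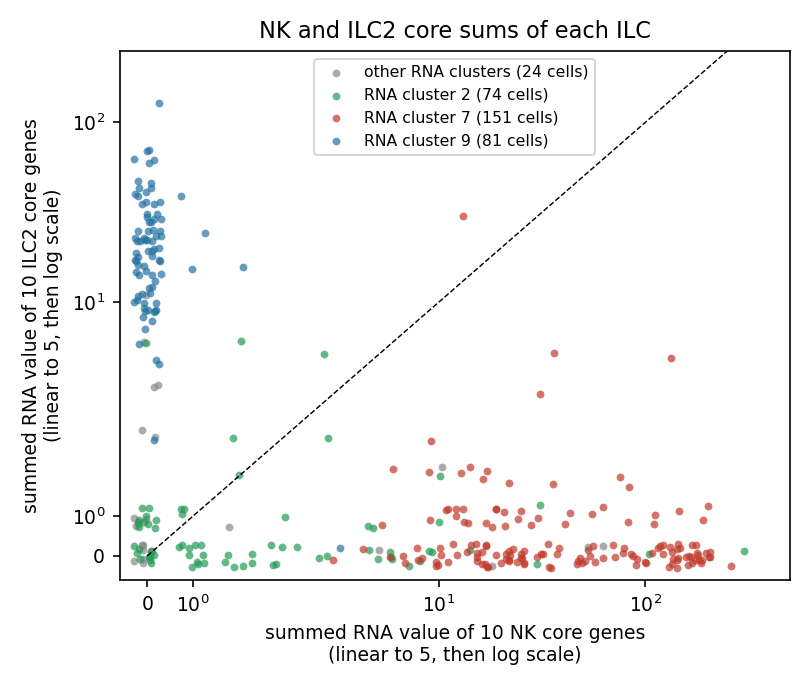
Summed RNA value of 10 NK core genes against that of 10 ILC2 core genes in each of the 330 ILCs, coloured by RNA cluster, on axes that are linear to 5 and logarithmic above, with points shifted by up to 0.3 so that they do not overlap. Cluster 7 cells lie along the NK axis, cluster 9 cells along the ILC2 axis, and few cells are high in both.

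Of genes known from group 3 ILCs, Il23r was above 0 in 1.21% and Il17a in 0.303% of all ILCs. Tmem176a and Tmem176b, membrane proteins listed with the group 3 genes but read in microglia as well (means of 1.86 and 3.25), were above 0 in 45.8% and 51.2% of ILCs. Cutting each cell by the larger of its NK core and ILC2 core sums gave 201 NK-leaning and 107 ILC2-leaning ILCs and 22 with equal sums. The cut makes a range and not a type, and 58 cells lay within 3 of it.

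Against CD8+ cells, ILCs were higher in genes of both the NK and the ILC2 lists and lower in the T cell receptor complex. The comparison used the 10 pools with at least 10 cells of both classes, paired by pool, and limma on log2 of the pool mean + 0.05. With an adjusted p (Benjamini-Hochberg) below 0.05, 335 of 6497 genes were higher in ILCs (5.16%) and 263 lower (4.05%), with a median log2 difference over all genes of -0.02. The classes were drawn by the authors partly on these readouts, so the p-values are no independent test that the classes differ. How far the classes lie apart is given by the log2 differences.

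Gata3 gave 0.688, 1.47, 0.944, 0.389, 0.533, 3.00, 1.71, 3.16, 2.25 and 2.32 in ILCs of the 10 pools, the first 5 of them young and the last 5 aged, with control before antibiotic pools at each age. In CD8+ cells it gave 0.419, 0.176, 0.350, 0.267, 0.278, 0.393, 0.333, 0.248, 0.213 and 0.392. Every pool was higher in ILCs, and the log2 difference was 2.00 ± 0.27 (SE, limma, adjusted p = 5.43e-05). Il1rl1 averaged 0.989 in ILCs and 0.0131 in CD8+ cells, was higher in 8 of 10 pools, and differed by 3.01 ± 0.56 (adjusted p = 0.00134). The 2 pools in which it was not higher were young antibiotic pools, whose ILCs held no Il1rl1 RNA. Rora differed by 1.56 ± 0.29 (adjusted p = 0.00136).

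Of 30 genes in the ILC2 list, 17 passed the filter on low levels and 14 of them were higher in ILCs than in CD8+ cells (median log2 difference 2.21), none lower. A gene could pass the filter through ILCs alone, so the share of this and the lists below is a description. Areg was higher by 3.12 (adjusted p = 0.00181), Calca by 2.99 and Hs3st1, a heparan sulfate sulfotransferase, by 2.92. The growth factor receptors Il2ra and Kit were higher by 2.85 (adjusted p = 0.000187) and 2.52 (adjusted p = 0.000621). Kit averaged 0.400 in ILCs and 0.00108 in CD8+ cells, where it was at 0 in 9 of the 10 pools. Among receptors for neuropeptides, lipids and alarmins, 9 of 15 tested were higher, Ltb4r1 by 2.42 and Ramp1 by 2.21 among them, and 1, Gpr183, was lower.

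Of 36 genes in the NK and ILC1 list, 34 were tested and 23 were higher in ILCs than in CD8+ cells (median 1.97). Without the possible gate genes Ncr1 and Klrb1c, which were higher by 4.80 and 3.86, it was 21 of 32 (median 1.89). Gzma averaged 19.1 in ILCs and 2.33 in CD8+ cells (4.58 ± 0.73, adjusted p = 0.000302), with ILCs of aged control 1 at 0.0909 and all other ILC pools between 6.85 and 37.2. Fcer1g was the gene with the smallest p (3.02 ± 0.15, adjusted p = 5.34e-10) and was higher in all 10 pools. The Ly49 receptor Klra4 was higher by 3.75, Klre1 by 2.57, Gzmb by 2.01 and Prf1 by 1.61. Eomes, Ifng and Ccl5, which CD8+ effector cells also make, were above 0 in 44.4%, 52.2% and 96.4% of CD8+ cells, against 27%, 33.9% and 69.4% of ILCs.

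The T cell receptor complex was lower in ILCs in 17 of the 18 members tested (median -2.30). Cd3e averaged 0 to 2.01 in the ILC pools and 2.26 to 3.96 in the CD8+ pools of this comparison, without overlap, and the highest ILC pool was aged control 2. Cd3e fell by 4.23, Cd8a by 4.69, Cd8b1 by 4.46, Cd5, a brake on receptor signalling, by 3.13 and Gzmk by 4.22 on the log2 scale. The egress and homing receptors S1pr1 (-1.57) and Ccr7 (-2.13) and 6 of 12 interferon response genes, such as Isg15 (-1.90) and Ifi27l2a (-2.76), were lower too. Of 14 immediate early genes tested, 10 were higher in ILCs (median 0.80). Fos and Jun averaged 12.7 and 14.7 in cluster 9, 4.27 and 4.68 in cluster 7 ILCs and 5.54 and 4.68 in CD8+ cells, while microglia reached 55.1 and 76.4. The part of dissociation or of free RNA in that list was not tested. Il7r (0.17) and Ltb (-0.21) did not pass the test.

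The counts held when cells in doubt were left out. Without the T-like cells of cluster 2, 378 of 6533 genes were higher (5.79%) and 309 lower (4.73%) than in CD8+ cells, with 15 of 19 ILC2 list genes higher, 23 of 34 NK list genes higher and 17 of 18 T cell receptor genes lower. With only the 287 ILCs that held Thy1 RNA, 289 of 6526 genes were higher (4.43%). The ILC2 list then stood at 15 of 19 higher and the T cell receptor list at 17 of 18 lower. The NK list stood at 19 of 31 higher and 2 lower, Eomes and Ccl5, and Prf1 no longer passed (0.73, adjusted p = 0.121).

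Against CD4+ cells the NK genes stood out most. In the 7 pools with at least 10 cells of both classes, 204 of 6386 genes were higher in ILCs (3.19%) and 118 lower (1.85%), with a median over all genes of 0.08. Gzma averaged at most 3.31 in any CD4+ pool and was higher in ILCs by 7.31 ± 0.47 (limma, adjusted p = 2.96e-08), Gzmb and Prf1 by 4.32 each and Klra4 by 4.47. Of 33 NK list genes tested, 28 were higher (median 2.71), or 26 of 31 without the 2 gate genes (median 2.60). Spry2, an inhibitor of growth factor signalling, was higher by 4.80.

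ILC2 genes were higher in fewer cases against CD4+ cells, with 10 of 20 tested higher and 1, Icos, lower (median 1.72). Gata3 was higher by 1.22 ± 0.30 (adjusted p = 0.0198), Il1rl1 by 2.72 ± 0.54 (adjusted p = 0.00406), Kit by 2.59 (adjusted p = 0.00148) and Il2ra by 1.85 (adjusted p = 0.0326). The Gata3 call was lost without aged antibiotic 1, aged antibiotic 3 or aged control 3 (differences of 0.95 to 1.12, adjusted p = 0.0717 to 0.0788). Rora (0.82, adjusted p = 0.357) and Areg (2.33, adjusted p = 0.254) did not pass. Genes of helper T cells were lower: Cd4 by a log2 difference of -4.12, Cd40lg of -3.73, Tnfrsf4 (OX40) of -3.90, Ctla4 of -3.25 and Cd5 of -4.29. Of 19 T cell receptor genes 16 were lower (median -2.13) and 1, Cd8b1, was higher (2.03, adjusted p = 0.0254). Without cluster 2, 248 of 6416 genes were higher (3.87%) and 136 lower (2.12%). With only Thy1-holding ILCs, 179 of 6416 were higher (2.79%), and the NK list stood at 24 of 31 higher and the ILC2 list at 9 of 20 higher and 1 lower.

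Among tags that do not bound the classes, CD117, CD25, CD11c and CD44 were higher and CD86, CD103, PD-1, Ly6C and CD169-Siglec-1 lower in ILCs than in CD8+ cells. Tags summed per pool and class were tested in edgeR (quasi-likelihood, TMM factors, pool as a block), and 13 of 34 antibodies passed (38.2%). Of these, 4 bound the classes (CD3, CD8a, CD45 and B220) and are no finding, which left 9 of 28, 4 higher and 5 lower. CD117 made up 0.172% to 2.75% of ILC tags over the 10 pools and 0.0530% to 0.114% of CD8+ tags, without overlap. It was higher in ILCs by 2.83 ± 0.44 (log2, edgeR, adjusted p = 8.33e-05). CD25 made up 0.0611% to 1.49% of ILC tags and 0.0420% to 0.113% of CD8+ tags, and was higher in 10 of 10 pools (2.26 ± 0.42, adjusted p = 0.000438). CD11c, an integrin carried by NK cells among others, was also higher in all 10 (1.38, adjusted p = 0.00165). The widest difference among the 9 was that of CD86 (-3.02, adjusted p = 8.29e-06), lower in all 10 pools. The integrin CD103 (-1.65), PD-1 (-1.15) and Ly6C (-0.72) were lower too.

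How tags were scaled decided the weaker calls. With no TMM factor 22 of all 34 antibodies passed, 17 higher and 5 lower, and the median over antibodies lay at 0.41 in place of -0.09. NK1.1 made up a larger share of tags in ILCs than in CD8+ cells in all 10 pools. Per cell, NK1.1 averaged 95.4 tags in ILCs and 72.7 in CD8+ cells of the young well, but 15.7 and 22.0 in the aged well. In the tests NK1.1 differed by 0.26 with TMM factors (edgeR, adjusted p = 0.479), by 0.77 without (adjusted p = 0.0045) and by 0.43 in DESeq2 (adjusted p = 0.0452). CD335 (-0.66) and KLRG1 (-1.28) tags were few in both classes and did not pass (edgeR, adjusted p = 0.205 each). CD335 tags did not follow Ncr1 RNA. In the aged well they averaged 0.103 per cell in cluster 7 ILCs, 0.211 in cluster 9 ILCs and 0.363 in CD8+ cells. Ncr1 RNA was above 0 in 96.0%, 2.47% and 1.1% of these sets over both wells. CD25, CD117, CD11c, CD86, CD103 and PD-1 passed in the same direction under both scalings and under DESeq2. The call for CD44 (0.56, adjusted p = 0.0429) was lost on leaving out any of 7 of the 10 pools, and that for Ly6C without TMM factors (-0.21, adjusted p = 0.212).

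Against CD4+ cells 7 of 34 antibodies passed (20.6%) in 7 pools. CD3 and CD4 among them bound the classes, which left 5 of 28, 4 higher and 1 lower. CD117 was higher by 2.41 ± 0.50 (edgeR, adjusted p = 0.00131) in 7 of 7 pools and CD25 by 2.53 ± 0.63 (adjusted p = 0.00593) in 6 of 7. CD11c (1.18, adjusted p = 0.0448) and CD38 (0.83, adjusted p = 0.043) were higher and CD86 was lower (-2.29, adjusted p = 0.00937). NK1.1 made up a larger share of tags in ILCs in 7 of 7 pools. Per cell, NK1.1 averaged 95.4 tags in ILCs and 67.8 in CD4+ cells of the young well, but 15.7 and 17.1 in the aged well. NK1.1 did not pass in edgeR with TMM factors (0.76, adjusted p = 0.225). It passed in edgeR with no TMM factor (1.01, adjusted p = 0.0219) and in DESeq2 (0.66, adjusted p = 0.0352). These calls rest on few pools: leaving out 1 pool ended that for CD25 in 5 of 7 cases, CD11c in 6, CD38 in 5 and CD117 in 3, among them each time aged antibiotic 1, aged antibiotic 3 and young control 3. The CD11c and CD38 calls were also lost without cluster 2 (adjusted p = 0.0669 and 0.0681).

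The tags are a readout that the RNA cut between NK-leaning and ILC2-leaning ILCs did not use, and they differed between the 2 sets. In the 6 pools with at least 5 cells of both sets (young control 2 and 3, aged control 2 and 3, aged antibiotic 1 and 3), 7 of 34 antibodies passed (20.6%). CD25 made up 0.0657%, 0.0771%, 0.0561%, 0.0425%, 0.170% and 0.166% of the tags of NK-leaning cells in those pools. In ILC2-leaning cells it made up 0.743%, 2.07%, 1.52%, 2.56%, 2.14% and 2.27%. The sets did not overlap, and CD25 was lower in NK-leaning cells by a log2 difference of -4.10 ± 0.39 (edgeR, adjusted p = 2.35e-05).

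CD117 followed the same direction in every pool, from 0.0996% to 0.435% in NK-leaning and 0.574% to 4.13% in ILC2-leaning cells (-2.93 ± 0.66, adjusted p = 0.00952). CD44, a hyaluronan receptor of activated lymphocytes, made up 6.60% to 12.8% of tags in NK-leaning and 17.0% to 29.3% in ILC2-leaning cells (-1.15 ± 0.25, adjusted p = 0.00952). NK1.1, the protein of Klrb1c, was higher in NK-leaning cells in 6 of 6 pools, at 4.21% to 11.1% against 2.13% to 4.48% (1.32 ± 0.32, adjusted p = 0.0115). CD11c was higher in 5 of 6 (3.75 ± 0.98, adjusted p = 0.0164), and the exception was aged control 2, at 0.583% against 1.08%. CD86 (1.45) and CD45 (0.85) were higher as well. Leaving out 1 pool ended the call for NK1.1 (aged antibiotic 1, 1.22, adjusted p = 0.0565), for CD44 (aged control 3, -1.21, adjusted p = 0.0528), for CD45 (aged control 3), for CD11c (aged control 3 or young control 2) and for CD86 (either of these or young control 3), but not for CD25 or CD117. With only NK-leaning cells of cluster 7 and ILC2-leaning cells of cluster 9, in 5 pools, 10 antibodies passed. CD11c was then higher in 5 of 5 pools (5.28, adjusted p = 1.88e-14). CD103, at -1.18 (adjusted p = 0.46) over both full sets, passed there (-2.87, adjusted p = 5.92e-05), as did CD38 (-0.62, adjusted p = 0.0298). In RNA, as a description, the full sets differed by 9.39 in Gzma and 6.15 in Klrb1c, and by -6.14 in Areg, -5.0 in Il1rl1 and -4.04 in Gata3.

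**Figure D3:**
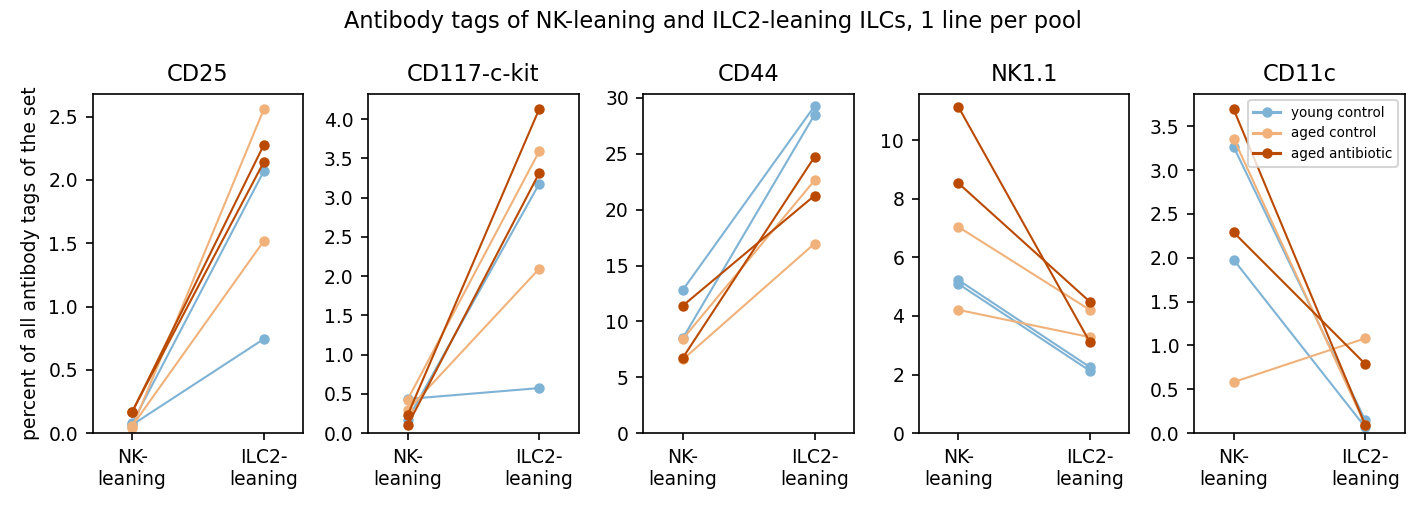
Percent of antibody tags taken by CD25, CD117, CD44, NK1.1 and CD11c in NK-leaning and ILC2-leaning ILCs, 1 line per pool for the 6 pools with at least 5 cells of both sets. All lines fall for NK1.1 and rise for CD25, CD117 and CD44 toward the ILC2-leaning set, and 1 of 6 CD11c lines, aged control 2, runs against the rest.

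Cells of the class ILCs made up a smaller share of lymphoid cells in aged than in young brains. Their share of the 5 lymphoid classes was 28.8%, 43.9% and 36.0% in young control, 19.8%, 33.3% and 16.4% in young antibiotic, 10.4%, 36.4% and 13.8% in aged control and 9.04%, 2.51% and 10.5% in aged antibiotic pools. The highest aged pool was aged control 2. Over both treatments the aged share was lower by a log2 difference of -1.20 (edgeR, adjusted p = 0.0178), and in percentage points by -15.9 (exact permutation test within treatment, p = 0.025, adjusted over 6 contrasts 0.09). Without cluster 2 the difference was -15.6 points (exact p = 0.005, adjusted 0.03). The denominator matters, since CD8+ cells numbered 106 in the young and 622 in the aged well. Among all cells the ILC share was 1.89% to 3.29% in young pools, 8.30% in aged control 2 and 0.361% to 2.62% in the other aged pools. The log2 difference with age was 0.04 (edgeR adjusted p = 0.933), -0.11 without cluster 2 (adjusted p = 0.801) and -0.52 without aged control 2 (adjusted p = 0.461). Clusters 7 and 9 also held cells outside the class, unevenly by well. In the aged well cluster 9 had 40 Ly6CLow cells and 15 microglia beside 71 ILCs. The young well had 1 Ly6CLow cell there beside 10 ILCs. Cluster 7 had 21 Ly6CLow cells beside 39 ILCs in the aged well and 31 beside 112 in the young well. Their part in the share by age was not tested.

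The share was lower in antibiotic than in control pools at both ages, without passing. The difference averaged over ages was -12.9 points (exact permutation test, p = 0.03, adjusted 0.09), with -13.0 in young and -12.9 in aged pools (exact p = 0.2 each, where 3 pools against 3 cannot go below 0.1). Without cluster 2 the average was -9.71 points (exact p = 0.02, adjusted 0.06).

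What the ILCs were also differed by age. NK-leaning cells made up 84.4%, 72.0% and 71.9% of ILCs in young control and 88.9%, 83.3% and 86.7% in young antibiotic pools. They made up 27.3%, 54.0% and 32.3% in aged control pools, and 37.5% and 40% in aged antibiotic 1 and 3; aged antibiotic 2 held only 5 ILCs, none NK-leaning, and was not tested. In aged control 2, 47 ILCs were NK-leaning but 12 lay in cluster 7, and its NK-leaning share was 35.9% without cluster 2 and 17.2% by the given markers alone. Every young pool lay above every aged pool. The difference of aged from young was -42.9 points (exact permutation test within treatment, p = 0.005, the smallest this design allows, adjusted 0.03). It was -52.2 points without cluster 2 and -43.7 with only Thy1-holding ILCs (exact permutation test, adjusted p = 0.03 for both). The call was lost when the whole NK and ILC2 lists made the cut (-36.8 points, exact adjusted p = 0.06). With a minimum of 20 ILCs a pool the difference was -39.8 points. That minimum left too few pools for the exact test to pass whatever the values, so it does not decide the call. Antibiotic and control pools differed by 10.2 points in young and 0.90 in aged mice, and neither passed (exact permutation test, adjusted p = 0.4 and 1). Neither could pass, since 3 pools against 3 cannot go below p = 0.1 in this exact test and the aged groups held fewer pools.

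By cluster, cluster 7 held 25, 15 and 22 ILCs in young control, 15, 12 and 23 in young antibiotic, 3, 12 and 9 in aged control and 6, 0 and 9 in aged antibiotic pools. Cluster 9 held 3, 1 and 6, then 0, 0 and 0, then 6, 20 and 20, and 10, 3 and 12 in the same order. No cluster 9 ILC was found among the 66 ILCs of young antibiotic brains, which allows a share of up to 4.55%. Cluster 2 held 48 ILCs in aged control 2 and 0 to 8 in each other pool. The same order was seen with the other classes counted in. Among the cells of all classes in clusters 7 and 9, ILCs included, cluster 9 made up 0% to 14.3% in young and 59.5% to 100% in aged pools.

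**Figure D4:**
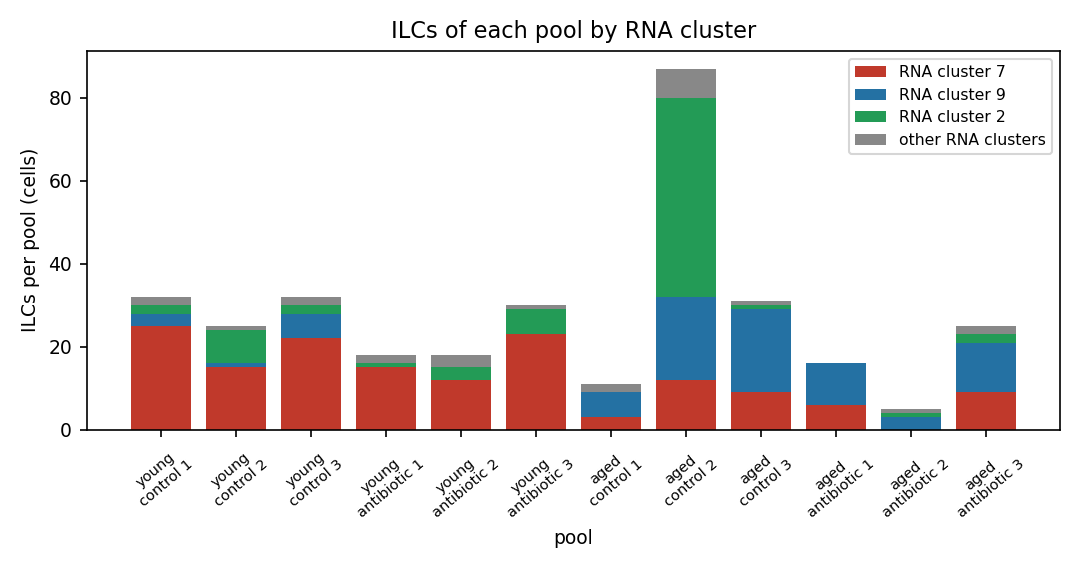
Number of ILCs in each of the 12 pools, stacked by RNA cluster (7, 9, 2 and all others). Cluster 7 is the largest part of the bar in all 6 young pools, cluster 9 exceeds cluster 7 in all 6 aged pools, and the 48 cluster 2 cells of aged control 2 stand out.

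A pool mean over all ILCs mixes these clusters, so the gene levels below cannot tell a change of make-up from a change within cells. In the 11 pools with at least 10 ILCs, and with both treatments together, 148 of 6442 genes were higher in aged than in young ILCs (2.3%) and 98 lower (1.52%), with a median over all genes of -0.10. Of 21 tested genes of the ILC2 list 14 were higher (median 2.01). Of 35 tested genes of the NK list 18 were lower (median -1.20), and of 15 tested T cell receptor genes 1 was lower.

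Areg gave 0.125, 1.16 and 0.5 in young control, 0.0556, 0 and 0 in young antibiotic, 3.00, 1.38 and 5.35 in aged control and 8.62 and 2.44 in the aged antibiotic pools tested. No aged pool overlapped a young one, and the log2 difference was 4.37 ± 0.45 (limma, adjusted p = 2.01e-05). Il1rl1 gave 0.250, 0.0400 and 0.781, then 0.0556, 0 and 0, then 2.55, 0.713 and 2.16, and 2.19 and 1.20 (3.62 ± 0.47, adjusted p = 0.000124). Here aged control 2 (0.713) lay below young control 3 (0.781). Gata3 was higher by 1.72 (adjusted p = 0.000584), Rora by 2.03 (adjusted p = 0.000591), Hs3st1 by 4.04 and Calca by 3.96. Ncr1 gave 4.31, 3.48 and 3.69, then 4.11, 2.89 and 3.43 in young, and 1.18, 0.954 and 1.52, then 1.25 and 2.28 in aged pools (-1.32 ± 0.18, adjusted p = 0.000206). Klrb1c was lower by -1.62 (adjusted p = 0.000148). Among genes outside both lists, Igkc, an immunoglobulin light chain gene, was higher by 3.53. In CD8+ cells Igkc gave 0.05 to 0.647 in young and 0.857 to 59.4 in aged pools as well, and the summed level of 10 B cell genes in ILCs was 1.2 to 2.06 in young and 1.44 to 6.78 in aged pools; their part in the result was not tested. S100a9 (-2.69) and S100a8 (-2.37), which neutrophils make in bulk, were lower. In CD8+ cells S100a9 was lower in aged pools too, at 0.189 to 0.292. It gave 56.1 in young control 3 and 0.333 to 1.06 in the other young pools of CD8+ cells. The summed level of 10 neutrophil genes in ILCs reached 53.4 in young control 1. The part of either in the S100a9 result was not tested. The S100a9 call was lost without aged antibiotic 1 (-2.73, adjusted p = 0.0753).

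In control mice alone, 29 of 6442 genes were higher (0.45%) and 39 lower (0.605%) in aged ILCs. The MHC class II genes H2-Eb1 (5.57), H2-Aa (5.0) and Cd74 (4.91) led the higher ones. H2-Aa was above 0 in 15 of 129 aged control ILCs, stayed between 0.0667 and 0.333 in cluster 7 pools, and was among the leading genes of the 7 ILCs of cluster 3, whose median raw UMI total was 17495. The summed level of 10 dendritic cell genes was 1.40 to 1.72 in young control and 16 to 47.9 in aged control ILCs, and its part in the result was not tested. Gata3 (1.55, limma adjusted p = 0.0414) was higher, Il1rl1 (2.54, adjusted p = 0.0623) did not pass, and Ncr1 (-1.63), Klrb1c (-2.32), Gzmb (-2.44) and Prf1 (-2.12) were lower.

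The NK-like ILCs of cluster 7 were also compared by age on their own. In 10 pools, 5 of 6324 genes were higher (0.0791%) and 17 lower (0.269%). The aged pools among them held only 6 to 12 such cells, so a gene that did not pass may still differ. None of the 10 NK core genes passed in limma (median 0.14), and of 35 NK list genes tested 2 were higher, Gzmb and Ccl5, and 1 lower, Itga1. The Gzmb call was lost on leaving out any of 6 pools and that of Ccl5 any of 5. Ncr1 gave 4.00 to 5.80 in young and 3.33 to 6.58 in aged pools (0.02, adjusted p = 0.98). Klrb1c differed by -0.11 (adjusted p = 0.869). Igkc was higher (3.51, adjusted p = 0.00237). Lgmn, a lysosomal protease, was lower by -3.22 (adjusted p = 0.000371), as were Lyz2, Cx3cr1, Csf1r and C1qb, which are known from macrophages and microglia. Of 12 microglial marker genes 11 were tested in these cells, 2 of them lower (median -1.58), and their part in the result was not tested.

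Few ILC genes passed between antibiotic and control pools. Each group held few pools, so a gene that did not pass may still differ. In young mice 0 of 6442 genes passed (0%), with 286 at an unadjusted p below 0.05 in limma. Nfkbia and Nfkb1, which encode the inhibitor and a subunit of NF-κB, came nearest (-1.59 and -1.42, adjusted p = 0.0525 each). Nfkbia gave 6.19, 6.76 and 7.59 in young control and 1.28, 4.17 and 2.07 in young antibiotic pools, without overlap. Weighting the pools by their cells gave 2 calls, and leaving out cluster 2 gave 8. In aged mice 2 of 6442 genes passed (0.031%), Csf2 and Cd74, both lower. Over both ages 1 passed (0.0155%), Csf2, and 1 gene differed in its antibiotic effect between ages (0.0155%), Cd74.

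Csf2, which encodes GM-CSF, gave 2.55, 1.57 and 4.58 in aged control ILCs and 0.125 and 0.280 in the aged antibiotic pools tested (-3.49 ± 0.54, limma, adjusted p = 0.0167). The untested pool with 5 ILCs was at 0. In young mice it gave 0.375, 0.560 and 0.156 in control and 0.0556, 0 and 0.0333 in antibiotic pools, and the mean effect over ages was -2.90 (adjusted p = 0.00117). Controls lay above antibiotic pools at both ages. In young mice Csf2 was above 0 in 10 of 89 control and 2 of 66 antibiotic ILCs. No young antibiotic ILC lay in cluster 9, so that cluster could not be compared there. In young cluster 7 ILCs the mean was 0.0444 in control and 0.0367 in antibiotic pools, with 1 and 2 cells above 0. The part of make-up in the young difference was not tested. Within the ILC2-like cells of cluster 9, Csf2 was above 0 in 25 of 46 cells of aged control and 6 of 25 cells of aged antibiotic brains. Their pool means were 4.67, 6.75 and 6.95 against 0.200, 0 and 0.583. The pool at 0 had 3 such cells and was not tested, and over the other 5 the difference was -3.93 ± 0.40 (limma, adjusted p = 0.00135). Csf2 was the 1 gene of 6002 that passed there (0.0167%). Gata3 (-0.35), Il1rl1 (-0.27) and Rora (0.09) did not pass in the same cells.

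The Csf2 call hangs on few pools. Over all ILCs it was lost without aged antibiotic 1 (-3.03, adjusted p = 0.174), and in cluster 9 it was lost on leaving out any of 5 aged pools, with differences from -4.60 to -3.26. It was larger with clusters 7 and 9 only (-3.97, adjusted p = 0.000695). Csf2 is among the leading genes of cluster 9, so the size of that cluster is not compared between treatments.

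**Figure D5:**
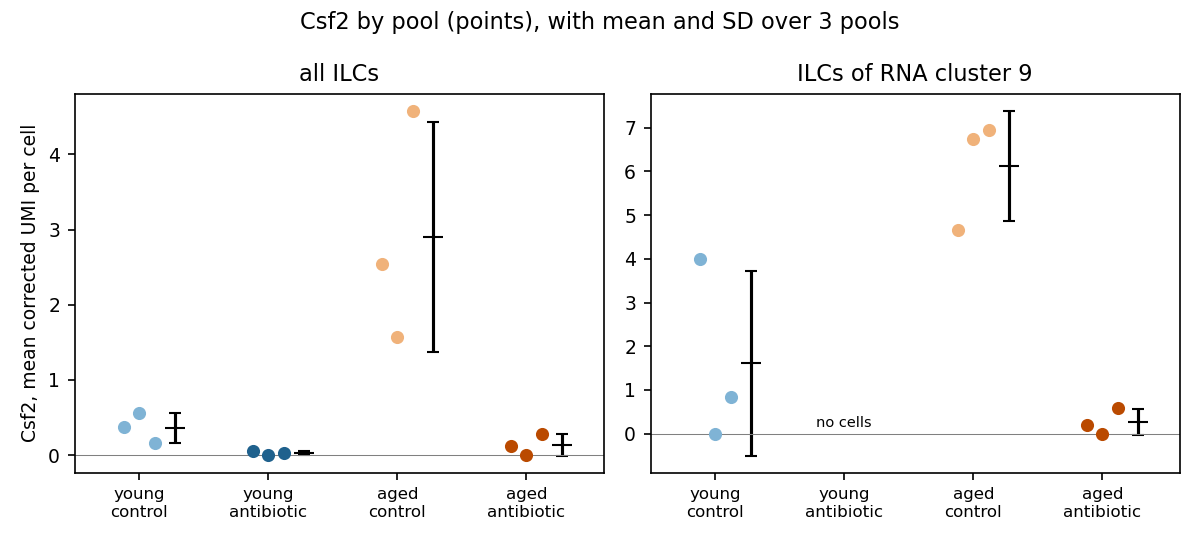
Mean Csf2 RNA value (corrected UMI) by pool over all ILCs and over cluster 9 ILCs, each point 1 pool, with the mean and SD of each group. Aged control pools lie at 1.57 to 4.58 over all ILCs and at 4.67 to 6.95 in cluster 9, above every aged antibiotic pool, and young antibiotic pools hold no cluster 9 ILC.

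Cd74, the invariant chain of MHC class II, gave 27.4, 7.59 and 13.3 in aged control and 0.188 and 0.640 in aged antibiotic ILCs (-5.12 ± 0.81, adjusted p = 0.0167). The call was lost without aged antibiotic 1 (-4.35, adjusted p = 0.259), and in cluster 7 and 9 ILCs alone the difference was -0.38 (adjusted p = 0.977). The dendritic cell genes moved with it, at a summed 1.8 to 3.6 in aged antibiotic and 1.61 to 19.1 in young antibiotic pools. Of these genes Clec9a was at 0 in aged control ILCs. The part of such cells in the Cd74 result was not tested.

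CD25 and CD117 tags of ILCs also differed by age over all ILCs, whose clusters differed by age too. With both treatments together 5 of 34 antibodies passed (14.7%) between aged and young ILCs, CD335 included, which is not compared. CD25 was higher in aged ILCs by 2.91 ± 0.33 (edgeR, adjusted p = 0.000126), CD117 by 2.68 ± 0.33 (adjusted p = 0.000126) and CD38 by 1.02 (adjusted p = 0.00516), and Ly6C was lower (-0.99, adjusted p = 0.0209). CD25 made up 0.0611% to 0.473% of tags in young and 0.483% to 1.49% in aged pools, without overlap. Within cluster 7 the differences were 0.17 for CD25 (adjusted p = 0.834) and 0.26 for CD117 (adjusted p = 0.812), and in cluster 9 CD25 made up 2.42% of tags in young and 2.46% in aged ILCs. In controls alone 3 passed (8.82%), CD25 (1.65), CD117 (1.75) and CD335. Without TMM factors the calls for CD25 (1.52, adjusted p = 0.0795) and CD117 (1.62, adjusted p = 0.0516) were lost there. The CD38 call was lost without aged antibiotic 1 (0.46, adjusted p = 0.323) and that of Ly6C without aged antibiotic 3 or aged control 1 (adjusted p = 0.0526 and 0.0518). T cells moved the same way between the wells. In CD8+ cells CD38 made up 4.12% to 7.30% of tags in young and 9.76% to 13.3% in aged pools. Ly6C made up 9.71% to 21.1% and 6.54% to 7.98% of CD8+ tags. In CD4+ cells CD38 made up 0.971% to 5.57% and 6.01% to 8.38%, while Ly6C overlapped. Whether CD38 or Ly6C of ILCs differed beyond that was not tested.

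Between antibiotic and control ILCs of young mice 1 antibody passed (2.94%), CD25. It made up 0.255%, 0.192% and 0.473% of control and 0.0611%, 0.116% and 0.120% of antibiotic tags (-2.05, edgeR, adjusted p = 0.0306). The call was lost on leaving out any of 7 of 11 pools and without TMM factors (-1.63, adjusted p = 0.149), and in cluster 7 ILCs CD25 differed by -0.10. In aged mice and over both ages 0 antibodies passed in edgeR (3 and 4 at an unadjusted p below 0.05), and 0 in DESeq2. Within cluster 7, NK1.1 was higher in aged ILCs (0.88 ± 0.16, edgeR, adjusted p = 0.00186), a call lost without aged antibiotic 1 (0.69). Ly6C was lower there (-0.94, edgeR, adjusted p = 0.0182), a call lost without aged antibiotic 1, aged control 3 or young antibiotic 1. Other cells moved the same way between the wells. NK1.1 made up 1.95% of tags in young and 3.32% in aged CD8+ cells, and 1.37% and 2.93% in CD4+ cells. In cluster 9 ILCs it made up 2.03% and 3.81%. Ly6C shares of CD8+ and CD4+ cells were lower in the aged well too. Whether cluster 7 differed beyond that was not tested.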

How the data were processed

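CITE-seq was done by the authors on 12 pools of brain immune cells, and per the submitters' processing notes Cell Ranger 3.0.2, Seurat 3.0.1 and the build mm10 were used. The deposited RNA table holds corrected UMI values of 19848 genes, a score that the authors made with SCTransform and that is no raw count. The deposited antibody table holds raw tag counts of 34 antibodies, as the authors gave them. All 13052 cells are deposited as singlets, and no doublet caller was run. Classes, RNA clusters and pools came from the deposited metadata, of which 32 columns were not used. The members and the gene lists were chosen with earlier results of these data known.

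Pools are the replicates, and pools with fewer than 10 cells of a class, or 5 of a cluster or set, were left out. RNA was averaged per pool and tested with limma 3.58.1 on log2(mean + 0.05) for genes with a mean of at least 0.1. A fold change on that scale understates the change of low genes. Tag sums per pool went into edgeR 4.0.16 quasi-likelihood tests (R 4.3.3), and DESeq2 1.42.0 was an alternative. Class comparisons had the pool as a block, because both classes of a pool came from the same mice. P-values were adjusted by Benjamini-Hochberg over all features tested, at 0.05. Shares were tested by two-sided exact permutation tests. Genes named are the given markers, up to 6 members a list by level or difference, and those with the largest differences past the threshold that lie on one side in every pool (between classes, up to 10) or do not overlap (between groups, up to 6, or the 2 with the smallest p where none passed); others were chosen after their values were seen. Scripts were tested on simulated data. Intervals and the limit set by a count of 0 (3 counts) cover counting error only.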

Additional observations from a re-analysis of the deposited data

Results flagged for a closer look

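The antibiotic effect on Cd74 RNA in ILCs differed between aged and young mice by -6.81 on the log2 scale (limma interaction term, adjusted p = 0.0373). The call was lost on leaving out aged antibiotic 1 or 3 or any of the 3 young control pools (-7.58 to -6.04, adjusted p = 0.0564 to 0.226). It was -0.64 in cluster 7 and 9 ILCs alone (adjusted p = 0.99). The antibiotic effect on CD172a-SIRPa tags in cluster 7 ILCs differed between ages by 3.42 (edgeR interaction term, adjusted p = 0.0431), a call lost without TMM factors, in DESeq2 and on leaving out any of 7 of 10 pools.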

How the results depend on the processing

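Of 2557 values from alternatives, 2244 kept their direction, their side of the threshold and, for counts, stayed within 1.5 times; 167 lost the threshold, 14 gained it, 120 moved and 12 changed sign. The cause was not tested for any of them.

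The pool pairs the classes because both come from the same mice. With no replicate block, 595 genes were called between ILCs and CD8+ and 294 between ILCs and CD4+ cells, 13 and 6 antibodies in the same order, and 6 antibodies between the NK-leaning and ILC2-leaning sets. Calls lost without the block were CD11c (1.00, adjusted p = 0.187), CD38 (0.74, adjusted p = 0.153) and Calca (adjusted p = 0.0735), all against CD4+ cells.

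In the class comparisons, a minimum of 20 cells left 258 genes against CD8+ and 96 against CD4+ cells. DESeq2 called 12 antibodies against CD4+ cells, and no TMM factor 22 against CD8+ cells.

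Of genes by age in controls, 35 were called with a minimum of 20 cells, 16 with 5 cells, 42 with no filter, 28 with only Thy1-holding ILCs, 151 with only clusters 7 and 9, 148 weighted by cells and 110 without cluster 2. With both treatments 438 were called in clusters 7 and 9 only. For the antibiotic in aged mice, 0 genes were called with the mean of log values or a minimum mean of 0.3, 1 in clusters 7 and 9 only, 4 with a pseudocount of 0.5 or without cluster 2, and 9 weighted by cells. For its difference between ages, 0 were called with at least 2000 UMIs, the mean of log values, a minimum of 5 cells, a minimum mean of 0.3 or no filter, 2 with only Thy1-holding ILCs, 3 in clusters 7 and 9 only, 6 weighted by cells and 5 without cluster 2. For its mean over ages, 0 were called with the mean of log values, 5 in clusters 7 and 9 only and 3 without cluster 2. In young mice 6 were called with only Thy1-holding ILCs, 14 in clusters 7 and 9 only, 2 weighted by cells and 8 without cluster 2.

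Within cluster 7, genes called by age were 10 with the mean of log values or a minimum mean of 0.3, 5 with a minimum of 3 cells and 41 with no filter. For the antibiotic in aged mice 1 was called there with the mean of log values or a pseudocount of 0.5 and 8 with no filter, and in young mice 1 with a minimum of 10 cells, 2 with no filter and 2 weighted by cells. Within cluster 9, 0 were called with a minimum of 10 cells or no filter and 2 with a pseudocount of 0.5.

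Of antibodies by age, 13 were called in clusters 7 and 9 only and 8 without cluster 2, and in controls 6 with DESeq2, 0 with at least 10 tags in 3 entries and 5 without cluster 2. In young mice under antibiotics 0 were called with at least 10 tags in 3 entries or no TMM factor, 2 in clusters 7 and 9 only and 3 without cluster 2, and 2 differed between ages without cluster 2.

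The log2 difference of the ILC share with age was 0.044 of all cells (0.50 in controls), which reversed its sign, and -0.71 of cells other than microglia. Chosen after seeing the data, the share of all cells gave -0.11 without cluster 2 (0.068 in controls, reversed) and -0.52 without aged control 2, where the antibiotic difference between ages reversed to 0.21. That of cluster 7 was -1.49 of all cells (-1.38 in controls, and -1.95 of cells other than microglia). With DESeq2 the antibiotic difference was -1.08 for ILCs over both ages and -3.90 for cluster 2 ILCs in aged mice, and the latter was -3.91 of all cells. The NK-leaning difference with age was -36.8 points with the whole NK and ILC2 lists (exact permutation test, adjusted p = 0.06). It was -39.8 points with a minimum of 20 ILCs, which left too few pools for that test to pass. The NK-leaning difference with the antibiotic reversed to -7.90 (whole lists), -12.0 (minimum of 5 ILCs) and -5.16 (Thy1-holding ILCs) in aged mice and to -0.90 over both ages (minimum of 5 ILCs), and its difference between ages to 2.43 with 4 given markers.

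Leaving out 1 pool at a time gave 136 to 291 genes by age, 28 to 91 in controls, 2 to 8 for the antibiotic in aged mice, 0 to 4 for its difference between ages, 1 to 5 over both ages and 0 to 7 in young mice. Antibodies called were 1 to 4 by age in controls, 0 to 1 for the antibiotic in aged mice and for its difference between ages, 0 to 3 in young mice and 3 to 8 between NK-leaning and ILC2-leaning sets. Cluster 7 gave 6 to 114 genes by age, 0 to 136 for the antibiotic in aged and 0 to 1 in young mice, and cluster 9 gave 0 to 1. The ILC share under antibiotics in aged mice ran from -1.83 to -0.72 (log2), the cluster 7 share by age in controls from -2.76 to -2.41, and the cluster 2 share in aged mice from -4.35 to 0.57, reversed without aged control 2. The NK-leaning difference ran from -46.9 to -40.2 points by age, and from -4.39 to 8.98 for the antibiotic in aged mice, reversed without aged control 1 or 3.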
